A study of Mus musculus with 8 samples.

Results

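The replication licensing genes comprised Mcm2 to Mcm7, Cdc6, Cdt1, Gmnn and Orc1, 10 genes chosen by symbol, and all 10 were found among the 25574 genes of the table. Their transcripts were present in both the non-polysomal (NP) and the polysomal (P) dataset of mouse oocytes at nuclear envelope breakdown (NEBD), mostly at high levels, and no member passed the test for a difference between the datasets. Mcm5 was the most abundant of them, with a mean of 345 ± 253 FPKM (SD, n = 4) in NP and 427 ± 247 FPKM (SD, n = 4) in P. Orc1 was the only member whose NP and P libraries did not overlap, with 53.9 ± 9.99 FPKM in NP and 27.2 ± 8.11 FPKM in P (SD, n = 4 each). NP lay above P without overlap for 5.92% of all genes tested. For Orc1 this was lost after quantile normalization and after scaling the libraries to one median FPKM. FPKM, fragments per kilobase scaled to library size, is a level per length. The length behind the values was 5229 bp for Cdc6, that of all its annotated exons merged, while its principal annotated transcript has 2559 bp. For Mcm2 it was 3370 bp, with a transcript of 3371 bp. Comparisons of genes with each other within a library therefore depend on the lengths used.

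Licensing is the step that allows each stretch of DNA to be copied once per cell cycle. The origin recognition complex, whose largest subunit is encoded by Orc1, marks the origins, and Cdc6 and Cdt1 load on them the ring of the MCM proteins, which later unwinds the DNA. Geminin, the product of Gmnn, binds Cdt1 and blocks renewed loading until the anaphase-promoting complex destroys it. Oocytes pass through both meiotic divisions without copying their DNA in between, and they store the licensing factors as maternal mRNA and protein for the first S phase after fertilisation.

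In each dataset 4 libraries were sequenced, numbered as replicates 1 to 4. Oocytes were taken from CD1 mice aged 8 weeks, 46 h after stimulation with 5 IU of pregnant mare serum gonadotropin, held at the germinal vesicle stage with 100 µM IBMX and then cultured without it for 180 min. All oocytes, those of both datasets included, received 0.1 mg/mL cycloheximide for 10 min, which holds ribosomes on mRNA, and 200 oocytes were lysed per profile. Each lysate was run on a gradient of 10 to 50% sucrose and cut into 10 fractions, of which fractions 2 to 5, with the free subunits and single ribosomes, gave NP and fractions 6 to 10 gave P. There was no genotype or drug contrast, and the only comparison is that of P with NP. The study's methods describe the replicates as independent biological ones, without saying how the animals were divided among them. All values are shares of an amplified library, and in such pooled material fewer cells with a transcript and less of it per cell cannot be told apart.

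The libraries had the markers of oocytes, with all 12 listed genes (among them Zp3, Gdf9 and Mos) above a mean of 1 FPKM in both datasets. Of 12 granulosa and cumulus cell genes, 2 passed this level, Cyp19a1 and Cyp11a1. Cyp19a1 was above 0 in 8 libraries, at up to 75.2 FPKM, and Cyp11a1 in 5 libraries, at up to 46.4 FPKM. Foxl2, Inhba, Has2, Ptx3 and Amhr2 were listed at 0 in every library. Summed over the 12 granulosa and cumulus cell genes, the level spanned 6.86 to 123 FPKM in NP, and 0.190 to 62.6 FPKM in P. Of the 4 blood cell genes listed there, Cd68 alone passed 1 FPKM, and only in NP, with summed levels up to 35.9 FPKM in NP and at 0 in P. Of the 5 stromal and endothelial genes Pecam1 alone passed, with sums of up to 63.5 FPKM in NP and up to 77.7 FPKM in P. The part of these cells in the values of the licensing genes was not tested. The P libraries held fewer genes above 0 than the NP libraries, 9139 to 11339 against 11703 to 13753.

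The stored mRNAs of oocytes are often switched on through short elements near the end of the 3′ untranslated region, above all the cytoplasmic polyadenylation element, which binds CPEB and acts together with the polyadenylation signal. The last 150 bases of the annotated 3′ untranslated region of each member (GENCODE M21, GRCm38, 1 transcript per gene) were searched on the mRNA strand for the elements TTTTAT and TTTTAAT. At least 1 of them was found in 6 of the 10 members and in 23.5% of the 18461 genes with such a window, and a polyadenylation signal, AATAAA or ATTAAA, was found in 7 members and in 80.3% of the genes. An element and a signal together were found in 5 members and in 19.4% of the genes, while Orc1 had an element but no signal in the window. The region of Mcm7 is only 136 bases long and was searched whole. Of the 9 members with a full window 5 held an element. Shown here is each element with its neighbouring bases, 30 in all, 5′ to 3′ with T for U, the element in capitals.
Mcm2, chr6:88883490-88883519, minus strand: tgtagtttattTTTTAATagatttgaataa
Mcm4, chr16:15623969-15623998, minus strand: aatttcattaatTTTTATagatccttagat
Mcm7, chr5:138164614-138164643, minus strand: catgctgcacttTTTTATtctgccaataaa
Cdt1, chr8:122573073-122573102, plus strand: ctagttttggcTTTTAATaaagtcatgtaa
Gmnn, upstream element, chr13:24751922-24751951, minus strand: atagtgtgtatTTTTAATccgttttatgta
Gmnn, downstream element, chr13:24751913-24751942, minus strand: atttttaatccgTTTTATgtaaatagcatt
Orc1, chr4:108614804-108614833, plus strand: gatacaaagtaaaattgaTTTTATagaaaa

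The element starts 35 bases before the annotated end in Mcm2, 90 in Mcm4, 49 in Mcm7, 45 in Cdt1, 96 and 86 in Gmnn, and 12 in Orc1. In Cdt1 the element overlaps an AATAAA, which shares its last letters. A second AATAAA of Cdt1 starts 20 bases before the end. Mcm3, Mcm5, Mcm6 and Cdc6 had neither form of the element in the window. A match is only a match of letters, and which transcript ends these oocytes use was not measured. The members with an element had log2 fold changes of P over NP between −1.42 and 0.57 (median −0.19) and those without between −0.31 and 0.46 (median 0.10), values that are given side by side without a test.

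The reads behind each value were recovered from the steps between FPKM values, with the annotated exon length for 5 members and a searched length for the other 5. Of the 80 values of the 10 genes in 8 libraries 72 rested on at least 100 reads, and 79 were above 0. The lowest numbers were those of Gmnn, with 0 reads in P replicate 4, 12 in NP replicate 4 and 34 in P replicate 2, and of Mcm7, with 35 in P replicate 4. In 78 of the 80 cases the value lay above the median of the genes tested in that library. Counting error is thus small for most members beside the spread between libraries, which was over 2-fold within NP for 9 members and within P for 8. Reads of amplified cDNA are not independent molecules, so that counting intervals understate the error.

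The test of P against NP, limma on log2(FPKM + 1), covered 14292 genes with a mean above 0.1 FPKM in at least 1 dataset, a filter that all 10 members passed. None of the 10 was called at an adjusted p below 0.1, with 3 genes (0.021% of those tested) called in either direction, 0.021% higher in NP and 0% higher in P. At an unadjusted p below 0.05 the count was also 0 members, with 9.95% of all genes. Under 4 of the alternative settings 1 member passed this level, as given below with the counts over all genes. The libraries of NP lay entirely above those of P for 1 member, Orc1, and for 5.92% of all genes. The reverse held for 0 members and 0.357% of genes, and 6.28% of genes had no overlap in either direction. The ratio of mean FPKM, P/NP, was below 0.5 for 0 members against 40.6% of genes, and above 2 for 0 members against 16.9%. By this ratio 5 members were higher in P and 5 in NP.

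The log2 fold change was negative for 7 of the 10 members and for 71.4% of all genes, and its median was −0.15 for the members and −0.39 for all genes. The scaling between libraries decides such signs. With every library centred on its median log2 value, the median of all genes became 0.57 and that of the members 0.81, with 2 members negative, and after quantile normalization the medians were −0.02 and 0.21, with 4 members negative. Relative to the median of all genes, 8 members lay above it with the values as deposited, and 7 after quantile normalization. Median centring cannot change this count because it shifts all genes alike. Without single libraries the count was 6 to 8, and it was 6 without NP replicate 4, P replicate 1 or P replicate 3. The difference of the medians, members minus all genes, was 0.24 with the values as deposited. It was 0.58 with a pseudocount of 0.1, 0.74 in voom on recovered reads, 0.55 without P replicate 4 and 0.14 without P replicate 3. Among the 3548 genes with mean levels in the range of the members, 21.3 to 386 FPKM, the median log2 fold change was −0.46.

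**Figure D1:**
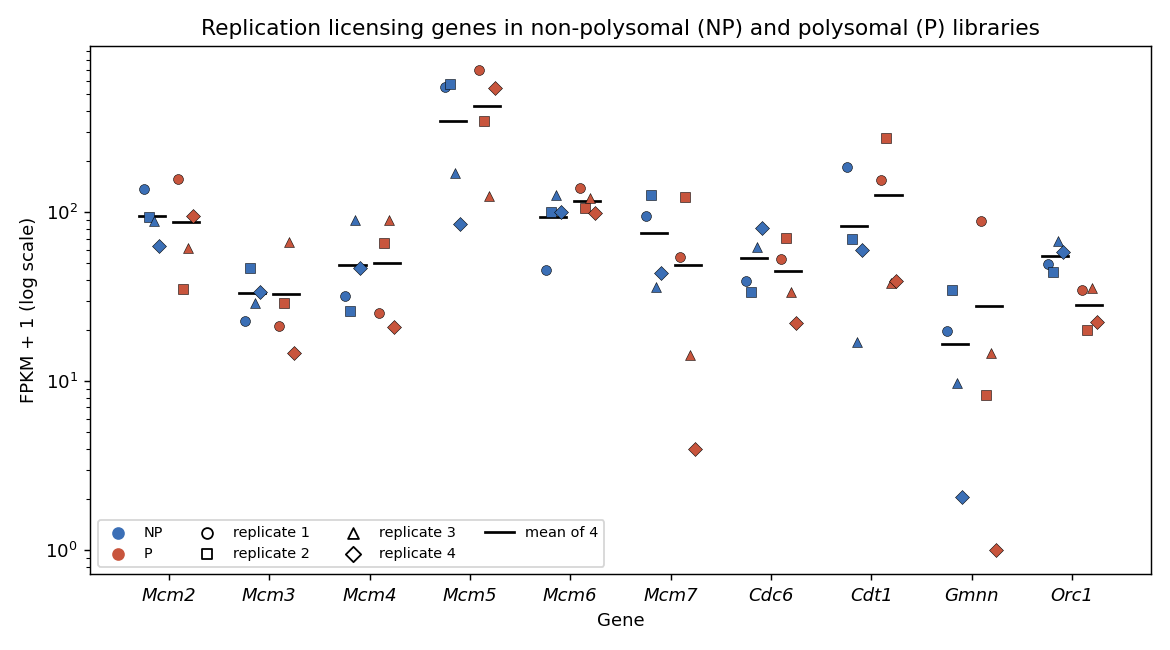
FPKM + 1 on a log axis for each licensing gene, with 1 point per library, NP in blue and P in red, marker shapes for replicates 1 to 4 and black bars for the mean of the 4 libraries. The NP and P points overlap for 9 genes, while all 4 NP points of Orc1, from 43.6 to 66.3 FPKM, lie above all 4 P points, from 19.0 to 34.9 FPKM; Gmnn in P replicate 4 is at 0.

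Orc1 encodes the subunit of the origin recognition complex with which Cdc6 shares ancestry (chromosome 4, 108579423 to 108614833). Its FPKM was 48.5, 43.6, 66.3 and 57.3 in NP replicates 1 to 4 and 33.5, 19.0, 34.9 and 21.6 in P replicates 1 to 4. Each NP library was above each P library, and the spread was the smallest of all members in NP, 1.52-fold between the lowest and the highest library. The log2 fold change was −0.99 (standard error 0.57, 95% interval −2.21 to 0.24, adjusted p = 0.560 from limma), and the ratio of means of 0.505 lay between 0.458 and 0.556 without single libraries. The separation of the datasets did not hold after other scalings: it was lost after quantile normalization, with a log2 fold change of −0.69, and after scaling to one median FPKM. With median centring the log2 fold change was −0.03, where the median of all genes was 0.57. The difference of Orc1 from the median of all genes was −0.60 with the values as deposited, which centring does not change. The exons share 376 bp with those of Gm12743 on the opposite strand, which had means of 4.81 FPKM in NP and 2.47 FPKM in P. The study made its libraries from amplified cDNA with a Nextera DNA kit and describes no step that keeps the strand. The part of Gm12743 in the reads of Orc1 was not tested.

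Cdc6, the ATPase that joins the origin recognition complex and recruits Cdt1 with the MCM ring, lies on chromosome 11 from 98907801 to 98923940. Its NP values were 38.1, 32.7, 61.3 and 79.3 FPKM and its P values 51.9, 69.6, 32.6 and 21.0 FPKM for replicates 1 to 4. The highest value was in NP and the lowest in P, with the rest interleaved. The log2 fold change of −0.31 had a 95% interval of −1.64 to 1.02 (adjusted p = 0.832 from limma). Orc1 was above Cdc6 in 3 of the 4 NP libraries and in 2 of the 4 P libraries, and the ratio of Cdc6 to Orc1 spanned 0.750 to 1.38 in NP, and 0.936 to 3.66 in P. These values rest on lengths of 5229 bp for Cdc6 and 3479 bp for Orc1. The annotated transcripts have 2559 and 3014 bp, so that which of these genes is higher depends on the length used.

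Cdt1, the loading factor that brings the MCM ring to the origin, lies on chromosome 8 from 122568015 to 122573128. In NP it had 186, 68.6, 16.0 and 58.5 FPKM and in P 155, 274, 37.0 and 38.2 FPKM for replicates 1 to 4. Replicate 3 was the lowest library of each dataset, and the range within NP, 11.6-fold, was wider than the difference of the means of 82.2 ± 72.6 and 126 ± 113 FPKM (SD, n = 4 each). Its log2 fold change was 0.57 (standard error 0.84, adjusted p = 0.777 from limma), the highest of the members, with a 95% interval from −1.23 to 2.37. The ratio of means, 1.54, was 2.65 without NP replicate 1 and 0.936 without P replicate 2.

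Gmnn, the gene of the Cdt1 inhibitor geminin, lies on chromosome 13 from 24751845 to 24761923 and had the lowest mean of the members in both datasets. The NP libraries held 18.8, 33.6, 8.82 and 1.08 FPKM and the P libraries 87.4, 7.24, 13.7 and 0 FPKM. No read was recovered in P replicate 4, where 3 reads, the limit used for a count of 0, would correspond to 0.765 FPKM, while the 12 reads of NP replicate 4 give a counting interval of 0.557 to 1.88 FPKM (exact Poisson, 95%). The means of 15.6 ± 14.0 FPKM in NP and 27.1 ± 40.6 FPKM in P (SD, n = 4 each) gave a ratio of 1.74, which rested on P replicate 1 and was 0.447 without it, and which was 2.83 without NP replicate 2. On the log2 scale the fold change was −0.10 with a 95% interval of −2.79 to 2.59 (adjusted p = 0.975 from limma), so that even large differences could not be detected for this gene. It was −0.73 with a pseudocount of 0.1, −1.14 without P replicate 1 and 1.02 without P replicate 4.

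Cdt1 exceeded its inhibitor in all 8 libraries on the FPKM scale. Divided by the level of Cdt1, that of Gmnn spanned 0.0184 to 0.551 in NP, and 0 to 0.563 in P, and the mean ratio was 0.290 ± 0.269 in NP and 0.240 ± 0.273 in P (SD, n = 4 each). The difference of these ratios is small beside their spread. Transcript levels do not give the amounts of the proteins.

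The MCM ring is built from 1 copy each of the products of Mcm2 to Mcm7, which are related ATPases. The summed FPKM of the 6 transcripts was 686 ± 281 in NP and 758 ± 254 in P (SD, n = 4 each). The 6 were far from equal in every library, and the highest exceeded the lowest 3.04-fold to 25.3-fold in NP and 9.42-fold to 183-fold in P. Mcm5 was the highest in 7 of the 8 libraries and Mcm6 in NP replicate 4, while Mcm3 was the lowest in 5 libraries, Mcm7 in 2 and Mcm4 in 1.

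Mcm5, a subunit at the gate through which the ring opens, lies on chromosome 8 from 75109528 to 75128439. It had 552, 572, 171 and 84.5 FPKM in NP replicates 1 to 4 and 695, 346, 124 and 542 FPKM in P replicates 1 to 4. Each dataset had 2 libraries at 542 FPKM or more and 2 lower ones, and the lowest and the highest library of NP differed 6.77-fold. The log2 fold change was 0.46 (95% interval −1.13 to 2.04, adjusted p = 0.796 from limma) and −0.08 without NP replicate 4. Mcm5 took 44.3 ± 19.9% of the summed MCM level in NP and 52.5 ± 19.5% in P (SD, n = 4 each), between 23.0 and 62.8% and between 26.3 and 70.3%.

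Mcm2, the neighbouring subunit at the gate, lies on chromosome 6 from 88883475 to 88898780. Its levels were 136, 92.9, 87.3 and 62.2 FPKM in NP and 157, 34.0, 60.7 and 94.6 FPKM in P for replicates 1 to 4. The P values enclosed the NP values, with the highest and the lowest library both in P. The log2 fold change of −0.28 had a 95% interval of −1.59 to 1.02 (adjusted p = 0.847 from limma), and it was 0.09 without P replicate 2.

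Mcm6, a subunit of the catalytic core of the ring, lies on chromosome 1 from 128331591 to 128359656. The NP values were 44.4, 99.5, 126 and 99.6 FPKM, and the P values, 138, 105, 120.3 and 98.1 FPKM, varied least of all members in P, 1.41-fold. Of the 3548 genes in the same range of mean level, 0.592% had a smaller SD of log2(FPKM + 1) in P. Means were 92.5 ± 34.5 FPKM in NP and 115 ± 17.8 FPKM in P (SD, n = 4 each). The log2 fold change was 0.40 (95% interval −0.77 to 1.57, adjusted p = 0.763 from limma), and 0.08 without NP replicate 1. When the libraries were brought to the same median FPKM, Mcm6 was the single member without overlap between the datasets, and it was then higher in P. That scaling raises P values relative to NP values for all genes, since the medians were 3.42 to 6.77 FPKM in P and 7.42 to 10.0 FPKM in NP. The share of all genes without overlap was not computed for it, so that nothing particular to Mcm6 can be read from this.

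Mcm4 and Mcm7, the other subunits of the catalytic core, lie on chromosome 16 (15623897 to 15637400) and chromosome 5 (138164583 to 138172422). Mcm4 had 31.1, 25.1, 88.5 and 45.9 FPKM in NP and 24.5, 64.7, 88.8 and 19.9 FPKM in P. Its highest library was replicate 3 in each dataset, and the log2 fold change was −0.04 (95% interval −1.51 to 1.43, adjusted p = 0.981 from limma). Mcm7 had 93.7, 126, 35.2 and 42.6 FPKM in NP and 53.3, 122, 13.2 and 2.95 FPKM in P. Replicate 2 was high in both datasets, whereas P replicates 3 and 4 lay below every NP library, and the 35 reads of P replicate 4 give a counting interval of 2.06 to 4.11 FPKM (exact Poisson, 95%).

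Mcm7 had the lowest log2 fold change of the members, −1.42 (standard error 0.94, 95% interval −3.44 to 0.61, adjusted p = 0.614 from limma). It was −0.53 without P replicate 4 and −2.19 without P replicate 2, and the ratio of means of 0.643 became 0.844 and 0.311. The share of Mcm7 in the summed MCM level spanned 6.56 to 13.1% in NP, and 0.383 to 17.4% in P. The length behind its values was 4426 bp, against 2962 bp for its annotated transcript, so that this share depends on the length used. Exons of Mcm7 share 64 bp with Cops6 and 321 bp with Ap4m1, both on the opposite strand. Cops6 had 569, 571, 184 and 78.7 FPKM in NP and 240.1, 179, 160.5 and 25.9 FPKM in P, with its lowest value in the same library as Mcm7, and Ap4m1 had means of 2.26 FPKM in NP and 0.430 FPKM in P. The part of these genes in the reads of Mcm7 was not tested.

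Mcm3, the neighbour of Mcm5 in the ring, lies on chromosome 1 from 20802974 to 20820278. It had 21.8, 45.8, 28.2 and 32.8 FPKM in NP and 20.3, 28.3, 66.1 and 13.6 FPKM in P for replicates 1 to 4. The means of 32.2 ± 10.2 FPKM and 32.1 ± 23.5 FPKM (SD, n = 4 each) were nearly equal, but the 95% interval of the log2 fold change, −1.61 to 1.22, leaves room for differences of over 2-fold in either direction (log2 fold change −0.20, adjusted p = 0.905 from limma). Its share of the summed MCM level was 5.36 ± 2.67% in NP and 5.41 ± 5.80% in P (SD, n = 4 each).

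**Figure D2:**
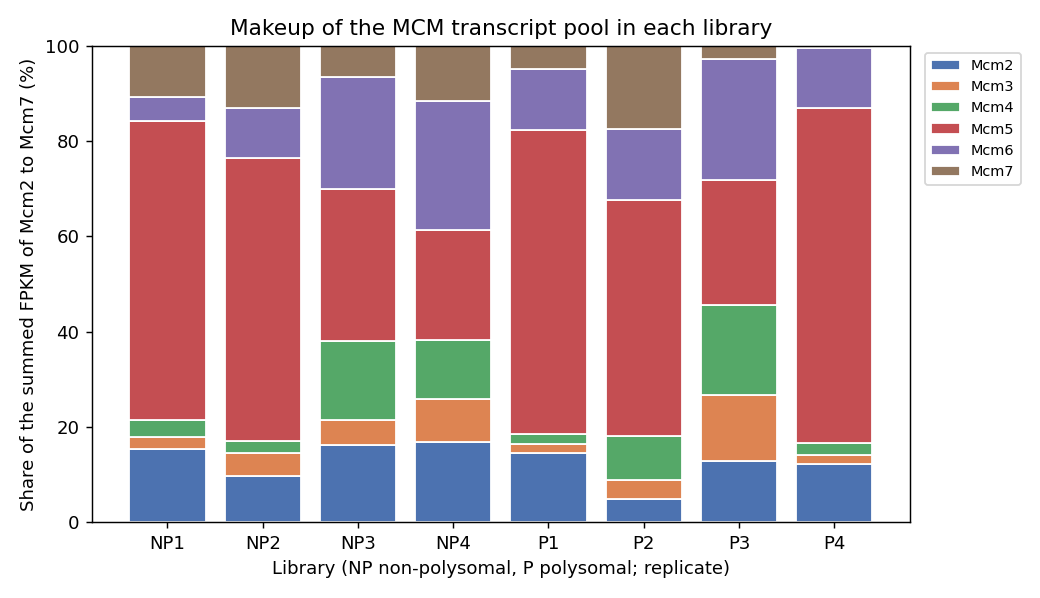
Stacked bars show, for each library on the x axis, the percentage of the summed FPKM of Mcm2 to Mcm7 that each of the 6 transcripts contributed. Mcm5 ranges from 23.0% in NP replicate 4 to 70.3% in P replicate 4, and libraries of one dataset differ from each other as much as the datasets do.

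By mean level the members were ordered Mcm5, Mcm2, Mcm6, Cdt1, Mcm7, Orc1, Cdc6, Mcm4, Mcm3 and Gmnn in NP and Mcm5, Cdt1, Mcm6, Mcm2, Mcm4, Mcm7, Cdc6, Mcm3, Orc1 and Gmnn in P. The ranges of neighbours in this order overlapped throughout, in both datasets, and the order also depends on the length used for each gene. Within single libraries, Mcm5 exceeded the next gene, Mcm2 in NP and Cdt1 in P, in 4 of 4 libraries of each dataset. The position of Orc1 moved from the sixth to the ninth. In percentiles of mean FPKM among all genes tested, the members ran from 67.5 for Gmnn to 98.2 for Mcm5 in NP and from 79.4 to 98.8 for the same genes in P.

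The spread between libraries was larger in P than in NP for the members, with a median SD of log2(FPKM + 1) of 0.98 in P and 0.72 in NP. Genes in the same range of mean level had medians of 1.22 in P and 0.81 in NP. Gmnn had the largest SD of the members in both datasets, 1.76 in NP and 2.66 in P. The smallest were those of Orc1 in NP, 0.26, and of Mcm6 in P, 0.22. The 95% intervals of the fold change lay within 4-fold in either direction for 5 members, Mcm2, Mcm3, Mcm4, Mcm6 and Cdc6, so that for these a larger difference lies outside the interval, while for the others it does not.

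**Figure D3:**
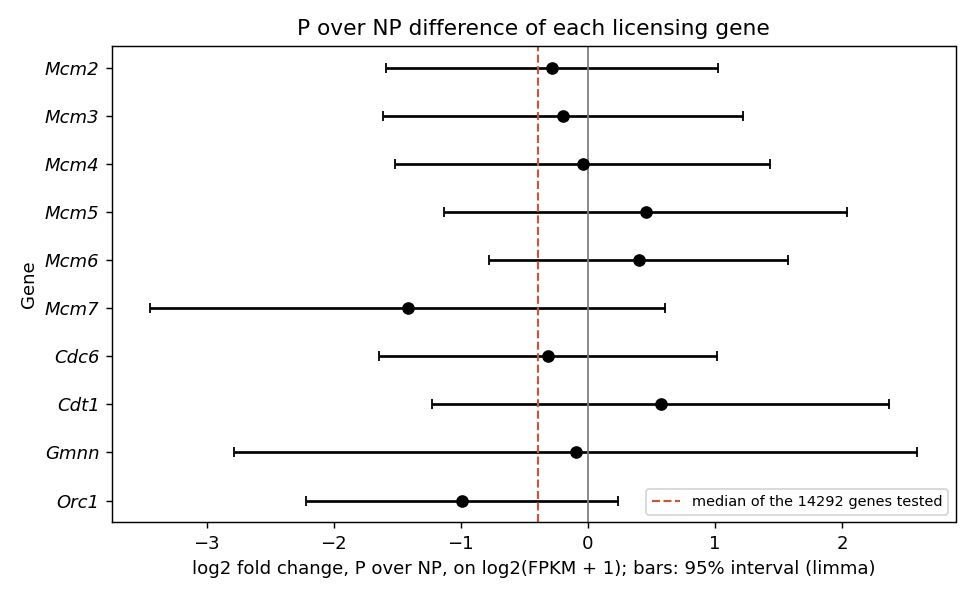
Points give the log2 fold change of P over NP on log2(FPKM + 1) for each member and bars its 95% interval from limma, with a grey line at 0 and a dashed line at −0.39, the median of the 14292 genes tested. Every interval includes 0, and the interval of Orc1, −2.21 to 0.24, reaches least far above it.

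Other genes of DNA replication were taken from a list of 55 genes, all found in the table, 2 of them under older symbols, of which 54 passed the filter. None was called in either direction, and 0 and 4 had an unadjusted p below 0.05 with higher values in P and in NP, which is 7.41% of the list against 9.95% of all genes. The other genes of the origin recognition complex (6 tested) had a median log2 fold change of −0.48, and the other MCM genes and their partners (4 tested) of −0.51. It was 0.20 for the genes of helicase activation (11 tested), −0.30 for Cdc7 and Dbf4, the kinase that starts the helicase and its activator, −0.32 for genes that control the destruction of Cdt1 and geminin (8 tested), and −0.23 for the replisome (23 tested). Over the 54 genes the log2 fold change was negative for 55.6%, against 71.4% of all genes, and its median was −0.18. The share was 31.5% with median centring and 42.6% with quantile normalization. The median was 0.78 and 0.24 in these cases, −0.46 with a pseudocount of 0.1 and −0.44 in voom, and leaving out single libraries gave −0.47 (P replicate 1) to 0.0037 (P replicate 4).

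Recql4, a helicase needed for assembling the active MCM helicase, was the only gene of the list whose datasets did not overlap, 1.85% of the 54 against 6.28% of all genes, and is given as the gene that met the naming rule. It had 28.3, 6.87, 14.0 and 15.2 FPKM in NP and 0.651, 0, 4.88 and 1.62 FPKM in P for replicates 1 to 4. Each NP library was above each P library, and the log2 fold change was −2.78 (standard error 0.89, adjusted p = 0.405 from limma). The other genes with an unadjusted p below 0.05, named after their values had been seen, were Pold2 (log2 fold change −2.64), Mcm8 (−2.19) and Pola1 (−1.85), with adjusted p values of 0.416, 0.501 and 0.493 from limma. Pold2 encodes a subunit of DNA polymerase delta, Pola1 the catalytic subunit of DNA polymerase alpha, and Mcm8 a relative of the ring subunits that acts in recombination repair.

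**Figure D4:**
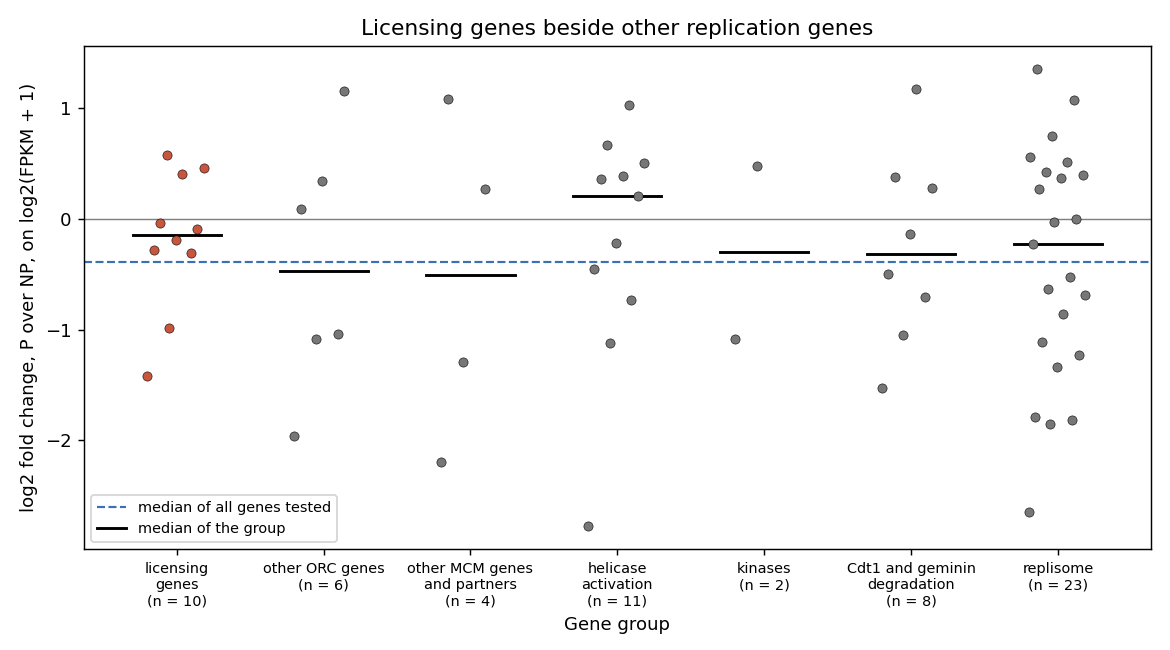
Each point is the log2 fold change of P over NP on log2(FPKM + 1) of 1 gene, licensing genes in red and the groups of the wider replication list in grey, with a black bar at the median of each group and a dashed line at −0.39, the median of all genes tested. The licensing genes lie between −1.42 and 0.57, within the range of −2.78 to 1.35 of the other replication genes.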

How the data were processed

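Polysomal (P) and non-polysomal (NP) RNA of mouse oocytes was compared in 4 libraries each, grouped and numbered by their titles. Reads were trimmed (Trim Galore 0.4.1), aligned to GRCm38 (HISAT2 2.0.5) and quantified per gene in Seqmonk by the authors. The deposited FPKM values, scaled to gene length and library size, are on a linear scale and were used without further scaling. The authors' deposited tables of dataset means with fold changes and of a DESeq2 comparison (fold changes and p-values) were not used here.

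FPKM values are not counts, so that the DESeq2 test of the study was not run on them. The 2-sided comparison of P with NP used lmFit and eBayes with a trend from limma 3.58.1 (R 4.3.3) on log2(FPKM + 1), which understates changes of low genes, for genes whose mean passed 0.1 FPKM in either dataset. Benjamini-Hochberg adjustment covered all of them, with a threshold of 0.1. The fit was tested on simulated data. Reads were recovered from the FPKM steps for 13588 genes (87.2% of the genes above 0), where a value counted as whole within 0.01 step, plus 2e-06 times its steps. The number to which a library was scaled lay between 1299377 and 7594637, and 1 read on 1 kb corresponded to 0.132 to 0.770 FPKM. The study defines its unit by fragments, and each recovered unit is called a read here. In every library the recovered reads summed to more than the number to which it was scaled (12441875 against 7594637 in NP replicate 4). What a recovered unit counts was not tested, and the counting intervals take each unit as 1 count. Elements were searched in GENCODE M21 transcripts, taking the principal isoform with the longest coding region.

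The members and lists were chosen with earlier results of these data known. All members are named. Of the wider list, a gene is named if called, or if its datasets do not overlap and the higher mean exceeds 10 FPKM, up to 12 genes, and 3 others with an unadjusted p below 0.05 were named after their values had been seen. Alternatives concerned the pseudocount, filter, scaling, replicate block, trend, single libraries and recovered reads. Python 3.11.15, numpy 2.4.6, pandas 2.3.3, scipy 1.17.1 and matplotlib 3.10.9 were used.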

Additional observations from a re-analysis of the deposited data

How the results depend on the processing

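No member was called under any of the 16 alternatives, with the lowest adjusted p of a member in limma at 0.206 (Mcm6, median centring). At an unadjusted p below 0.05 limma passed 1 member in each of 4 settings. These were Orc1 with no filter and without a trend, Mcm6 with median centring and Mcm7 without P replicate 2. Of all genes, 1510 of 15585 passed this level with no filter and 1616 of 14292 without a trend. With median centring 2896 of 14292 passed it, and without P replicate 2 1212 of 14226. Over all genes limma called 3, against 0 with median centring, quantile normalization or no filter, 5 with a pseudocount of 0.1 or a filter at 1 FPKM, 20 without a trend, 0 to 5 without single libraries, and 124 (122 higher in NP) in voom on recovered reads. Median centring raised the median log2 fold change of the members from −0.15 to 0.81 and left 2 negative members, turning Mcm2 to 0.67, Mcm3 to 0.76, Mcm4 to 0.92, Cdc6 to 0.64 and Gmnn to 0.86. Quantile normalization left 4 negative members and 0 members without overlap, and turned Mcm3 to 0.17, Mcm4 to 0.25 and Gmnn to 0.37. In voom on recovered reads Gmnn was at 0.042. Geometric means gave 2 members, Mcm7 and Orc1, a P/NP ratio below 0.5 in place of 0. The shares of all genes without overlap after quantile normalization, or below this ratio with geometric means, were not computed.

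Without single libraries the median of the members lay between −0.25 and 0.19 and 4 to 8 members were negative. In these fits 1 member did not overlap and 0 to 2 had a ratio below 0.5. The shares of all genes for these counts were not computed without single libraries, so nothing particular to the members can be read here. The log2 fold changes then ranged from −0.64 to 0.088 for Mcm2, −0.62 to 0.12 for Mcm3, −0.41 to 0.31 for Mcm4, −0.082 to 0.96 for Mcm5, −0.036 to 1.12 for Cdt1 and −1.14 to 1.02 for Gmnn, while Mcm6, Mcm7, Cdc6 and Orc1 kept their sign. The 4 negative members and the median of 0.19 came without P replicate 4. The causes were not tested.

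With the replicate number as a block 0 members were called and 1 gene in all, against 3 without it. Mcm7 was lower in P in each same-numbered pair (adjusted p = 0.420 from limma with the block). Each gradient gave an NP and a P pool, but no label ties a number to a gradient. Deviations of same-numbered libraries correlated at 0.139, 0.0518, 0.251 and 0.155, all positive. Each P library correlated best with the NP library of its own number, and so did each NP library except NP replicate 2 with those of P. The main fit did not take the numbers as pairs because no label ties them to a gradient. Replicate 2 also stayed under 0.1, a limit chosen here. Pairing remains possible, and the fit with the block is given for that case. The 4 libraries per dataset limit the precision. Read numbers were lowest for Gmnn and for Mcm7 in P replicate 4, and how far depth limits the other values was not tested.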
